A study of Mus musculus with 155 samples.

Results

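The 10 genes described here encode secreted signals of inflammation and stem cell niches and 1 of their receptors: the chemokines Ccl2, Ccl7, Cxcl1, Cxcl5 and Cxcl12, the chemokine receptor Cxcr4, the cytokines Il6, Lif and Csf1, and the complement component C3. They are 10 of 55471 genes in the RNA-seq count tables and were chosen from measured values: Ccl2 was far lower in oligodendrocyte progenitor cell (OPC) libraries expressing H3.3K27M, and Cxcr4 was higher in embryonic stem cells (ESCs) expressing H3.3K27L. The levels of the 10 genes in those 2 comparisons are therefore described without a test. Tests were made in the other comparisons, by a fit to all genes.

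The samples derive from KH2 mouse ESCs that carry, beside their own histone genes, an extra H3.3 gene with a SNAP-HA tag that doxycycline (Dox) switches on. The extra copy encodes wild-type H3.3 (WT-H3.3), H3.3K27M, in which methionine takes the place of lysine 27 as in diffuse midline glioma, or H3.3K27L, with leucine at the same position. Every library came from Dox-treated cells, the WT-H3.3 controls included, and the lines are selected clones, so line and clone cannot be told apart. ESCs were collected after 4, 8, 24 or 72 h of Dox in 4 groups (H3.3K27L, H3.3K27M, WT-H3.3 alone, and WT-H3.3 treated with GSK343, which blocks the PRC2 enzyme EZH2), with 2 replicates for each group and time, 32 libraries in all. Cells differentiated with retinoic acid (RA) were collected for the 3 lines after 24 and 72 h of Dox, 1 library each, 6 in all. OPC cultures, made through embryoid bodies with RA and purmorphamine, were collected for WT-H3.3 and H3.3K27M after 24 and 72 h of Dox, 1 library each, 4 in all. The ESC medium contained LIF protein and the 2i kinase inhibitors, and the RA medium contained neither.

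Chemokines are small secreted proteins that direct cell migration through G protein-coupled receptors. Ccl2 and Ccl7 act on Ccr2 of monocytes and Cxcl1 and Cxcl5 on Cxcr2 of neutrophils, and all of them are typically induced through NF-kB. Cxcl12 acts on Cxcr4 and is bound by the scavenging receptor Ackr3; this pair guides progenitors in the embryo and in the nervous system. Il6 and Lif signal through receptors that share Il6st (gp130) and activate Stat3, the route by which LIF keeps mouse ESCs undifferentiated. Csf1 is the growth factor of macrophages and microglia, and C3 is the central protein of the complement cascade.

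Total counts were 7499258 to 12387113 in the OPC libraries, 2239137 to 22269533 in the RA libraries and 68378 to 21161392 in the ESC libraries. Only 1 library held fewer than 1000000 counts (H3.3K27L ESCs, 72 h, replicate 2, 68378), and GSK343-treated ESCs at 8 h, replicate 2, held 1247934. The 4 H3.3K27L ESC libraries numbered replicate 2 stood apart: 3.47 to 4.12% of their counts came from chromosome 8, against 5.69 to 6.09% in the other 28 ESC libraries, and their part in the H3.3K27L values is shown by leaving them out. The labelled cell types were checked against marker lists. In the OPC libraries Olig1 and Olig2 were abundant (148 to 665 and 274 to 1000 CPM, counts scaled to a library total of 1000000), while Sox10 was at 0.141 to 3.37 CPM, Mbp at 0.521 to 2.45 CPM and Mag had no count. The RA libraries, labelled as neural progenitors, had 813 to 6860 CPM summed over 10 markers of extraembryonic endoderm, against 41.8 to 159 CPM in ESCs, and 44.0 to 89.6 CPM summed over 10 neuronal markers, against 225 to 590 CPM in ESCs. CPM were scaled by TMM within each stage. Because they do not correct for transcript length, levels are compared between libraries and not between genes.

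In OPC cultures, the chemokines, Cxcr4, Lif, Csf1 and C3 were lower with H3.3K27M than with WT-H3.3. The difference was about 150-fold for Ccl2 and Ccl7 and 2.62-fold for Cxcr4. Il6 had too few counts for a ratio. The 2 Dox times of a line served as its 2 replicates. Of the 10 genes, 7 passed the filter on low counts and 3 (Cxcl5, Il6 and C3) did not. All 7 were more than 2-fold lower, and 15.0% of the 12467 genes tested were called lower. The 7 cannot be read as support for a decrease: Ccl2 chose the list on this contrast, Ccl7 and Cxcl1 reached the filter level of 1.13 CPM in no H3.3K27M library, and Lif reached it in 1.

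Ccl2, the monocyte chemoattractant, was at 199 CPM (24 h) and 186 CPM (72 h) with WT-H3.3 and at 1.41 and 1.17 CPM with H3.3K27M, from 2349, 1826, 10 and 9 counts. The WT-H3.3 libraries were close to each other and far above both H3.3K27M libraries, with a log2 fold change of -7.21 ± 0.21 (SE). Ccl7, the neighbouring monocyte chemokine, was at 88.5 and 96.9 CPM with WT-H3.3 and at 0.845 and 0.391 CPM with H3.3K27M. Its log2 fold change was -7.22 ± 0.27. With 6 and 3 counts in the H3.3K27M libraries this value is less certain than that of Ccl2: without the 24 h library it was -7.84 (-7.34 for Ccl2) and without the 72 h library -6.75 (-7.08). Pooling the counts of each line, Ccl2 was 150-fold (95% exact interval 96.1 to 250, counting error only) and Ccl7 151-fold (79.6 to 332) higher with WT-H3.3.

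Among the CXC ligands, Cxcl1, a neutrophil chemoattractant, was at 20.7 and 24.4 CPM with WT-H3.3 and at 0.282 and 0.391 CPM with H3.3K27M. These last values rest on 2 and 3 counts, and the pooled ratio was 66.0-fold (28.1 to 204). Cxcl5, a related neutrophil ligand, was low throughout, at 0.678 and 1.84 CPM with WT-H3.3 and 0.141 and 0.130 CPM with H3.3K27M, 1 count in each H3.3K27M library, a ratio of 8.89-fold (2.22 to 77.3). Cxcl12 was at 29.0 and 20.4 CPM with WT-H3.3 and at 1.55 and 2.74 CPM with H3.3K27M, a log2 fold change of -3.51 ± 0.31. Its receptor Cxcr4 had the smallest difference of the 7 genes that passed the filter: 24.7 and 26.3 CPM with WT-H3.3 against 8.59 and 10.8 CPM with H3.3K27M, a log2 fold change of -1.39 ± 0.20. Ligand and receptor were thus lower in the same libraries, the ligand by the larger factor.

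Csf1 was at 316 and 240 CPM with WT-H3.3 and at 22.1 and 16.2 CPM with H3.3K27M, a log2 fold change of -3.86 ± 0.20. It was still detected with 157 and 124 counts in the H3.3K27M libraries. Lif was at 7.96 and 9.28 CPM with WT-H3.3 and at 0.423 and 1.17 CPM with H3.3K27M, a log2 fold change of -3.39 ± 0.42. Its fold change ranged from -4.30 to -2.86 when a library was left out. Il6 had 1 and 3 counts with WT-H3.3 and none with H3.3K27M, which is too few for a ratio. C3 had 10 and 9 counts with WT-H3.3 (0.847 and 0.918 CPM) and none with H3.3K27M, at least 4.33-fold higher against the limit of 3 counts over both H3.3K27M libraries (0.203 CPM). For each of the 10 genes both H3.3K27M libraries lay under both WT-H3.3 libraries, which was also so for 38.6% of all genes tested. Since these are bulk cultures, fewer expressing cells and less RNA per cell cannot be told apart.

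**Figure D1:**
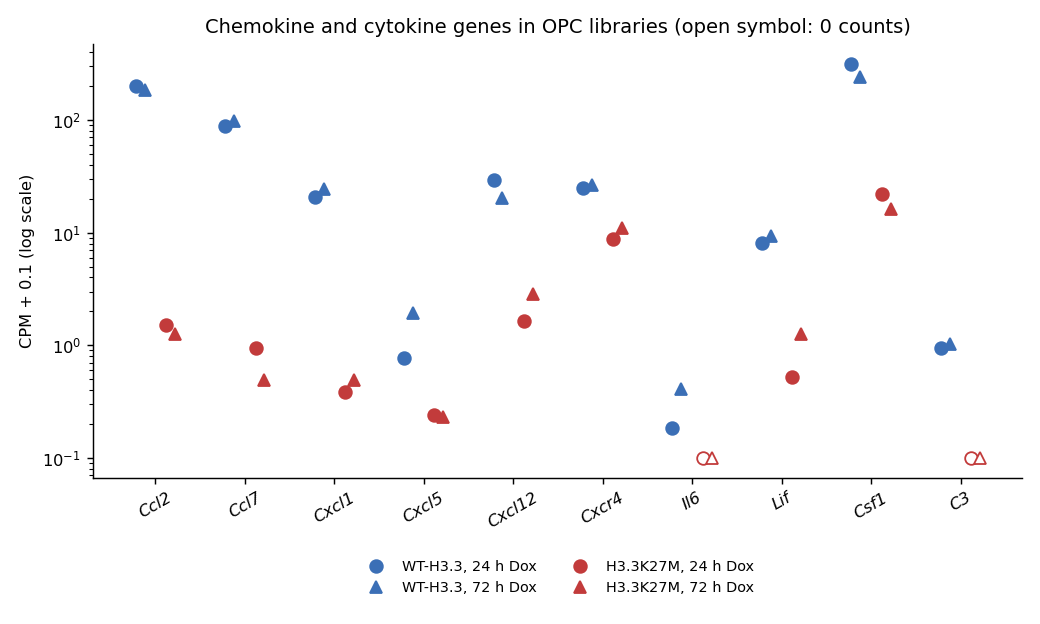
CPM plus 0.1 on a log scale (y axis) of the 10 genes (x axis) in the 4 OPC libraries, blue for WT-H3.3 and red for H3.3K27M, circles for 24 h and triangles for 72 h of Dox; open symbols mark 0 counts. The red symbols lie below the blue ones for every gene, with the widest gaps for Ccl2, Ccl7 and Cxcl1 and the narrowest of the 7 filtered genes for Cxcr4.

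The promoters of the members were searched for the NF-kB motif by its consensus and for the AP-1 motif TGANTCA on both strands. NF-kB and AP-1 are classical inducers of some of these genes. A window from 250 bases before to 50 bases after the start site was found in RefSeq (GRCm38.p6) for 7 of the 10 genes; Ccl2, Ccl7 and Cxcl5 had no entry. The NF-kB motif occurred in the windows of 4 of these 7 genes (Cxcl1, Csf1, Lif and Il6), and in 8.46% of the 32851 windows of the table. The AP-1 motif occurred in 2 (Lif and Il6), and in 7.81% of all windows. Cxcl12, Cxcr4 and C3 held neither motif. The STAT motif TTCNNNGAA occurred in none of the 7 (8.3% of all windows). The letters TATAAA of the TATA box occurred in 2, Cxcr4 and C3 (13.6%). They lie before the start site in Cxcr4, but begin 14 bases after it in C3. The 4 windows with an NF-kB match are shown, picked by the match. Cxcl12, Cxcr4 and C3, which held none, were also lower in the H3.3K27M OPC libraries, and Il6 had 4 counts only. Whether the motif took part in the OPC levels was not tested. Capitals mark the matches, and each window is written 5′ to 3′ on the strand of its gene.
Cxcl1, chr5:90890995-90891294, plus strand: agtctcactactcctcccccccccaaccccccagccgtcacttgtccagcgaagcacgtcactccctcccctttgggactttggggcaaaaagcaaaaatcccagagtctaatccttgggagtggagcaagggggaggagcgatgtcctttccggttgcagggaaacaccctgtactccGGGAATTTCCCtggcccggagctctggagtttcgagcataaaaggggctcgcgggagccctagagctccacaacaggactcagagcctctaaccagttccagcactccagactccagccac
Csf1, chr3:107760420-107760719, minus strand: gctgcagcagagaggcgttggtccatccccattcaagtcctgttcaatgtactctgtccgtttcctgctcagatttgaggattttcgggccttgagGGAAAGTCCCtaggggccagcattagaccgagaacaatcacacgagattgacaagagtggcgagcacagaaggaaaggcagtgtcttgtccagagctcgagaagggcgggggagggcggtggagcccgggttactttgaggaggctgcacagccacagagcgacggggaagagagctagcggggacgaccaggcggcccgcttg
Lif, chr11:4257318-4257617, plus strand: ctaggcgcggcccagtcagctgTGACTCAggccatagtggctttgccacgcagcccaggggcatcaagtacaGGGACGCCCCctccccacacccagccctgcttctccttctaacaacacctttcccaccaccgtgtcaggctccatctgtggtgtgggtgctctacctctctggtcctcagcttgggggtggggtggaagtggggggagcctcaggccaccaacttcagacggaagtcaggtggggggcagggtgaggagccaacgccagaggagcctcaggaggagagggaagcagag
Il6, chr5:30012864-30013163, plus strand: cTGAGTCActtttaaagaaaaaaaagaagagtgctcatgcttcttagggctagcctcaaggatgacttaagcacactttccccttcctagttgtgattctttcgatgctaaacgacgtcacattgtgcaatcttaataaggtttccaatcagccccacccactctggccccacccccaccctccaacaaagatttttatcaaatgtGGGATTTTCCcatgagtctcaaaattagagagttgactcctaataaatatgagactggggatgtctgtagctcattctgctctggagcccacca
The Cxcl1 match is read on both strands, as matches that overlap by all but 1 base at either end, and begins 71 bases before the start site. In the Il6 window the NF-kB match begins 44 bases and the AP-1 match 249 bases before the start site. In the Lif window they begin 178 and 228 bases before it, and the Csf1 match begins 154 bases before it. A match describes letters in the window and does not show that a factor binds there.

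Ccl2 and Ccl7 lie on the plus strand of chromosome 11 (mm9, chr11:81849073-81850955 and chr11:81859214-81861027), with 8259 bases between them, in a run of CC chemokine genes. The other chemokine genes of that run within 100 kb were low with H3.3K27M as well. Ccl11, the eosinophil chemokine eotaxin, had 225 and 212 counts with WT-H3.3 and none with H3.3K27M, at least 99.6-fold higher against the same limit. Ccl12, a further monocyte ligand, had 23 and 25 counts with WT-H3.3 against 1 and 0, and Ccl8 had 6 and 1 against none. Cxcl1 and Cxcl5 lie on chromosome 5 (chr5:91320267-91322141 and chr5:91188325-91190651) with 129.6 kb between them, in the cluster of neutrophil chemokines. There the genes did not share 1 direction: Cxcl2 had 36 and 10 counts with WT-H3.3 against 0 and 1, Cxcl15 had 11 and 7 against none, and Ppbp and Cxcl3 had none in any OPC library. Pf4 (platelet factor 4), between Cxcl5 and Cxcl1, had 14 and 16 counts with H3.3K27M against 1 and 2 with WT-H3.3, a log2 fold change of 3.74 ± 0.65. Pf4 passed the filter only through the H3.3K27M libraries, so its higher level is a description.

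The other genes of the same families in OPC cultures were read beside the 27.9% of genes called in either direction. Called genes are those with a Benjamini-Hochberg adjusted p under 0.05 in edgeR's quasi-likelihood test and a fold change over 2. As among the 10 genes, a gene under the filter level of 1.13 CPM in both H3.3K27M libraries could pass only through its WT-H3.3 libraries, which fixes its direction. The same holds in reverse for a gene under that level in both WT-H3.3 libraries. Of 14 further CC chemokines, 4 passed (Ccl11, Ccl12, Ccl20 and Ccl27a), all of them in this way, so their lower level is a description: Ccl20 was at 6.27 and 3.37 CPM with WT-H3.3 and at no count and 0.13 CPM with H3.3K27M. Of 12 further CXC chemokines, 4 were tested, 2 fell and 1 rose: Cxcl10, a ligand induced by interferon, fell from 4.58 and 2.45 CPM to no count, Cxcl14 fell from 18.0 and 11.4 CPM to 3.8 and 4.17 CPM, and Pf4 rose. Cxcl10 also passed the filter only through the WT-H3.3 libraries, and Pf4 only through the H3.3K27M libraries, so both are descriptions. Among cytokines and growth factors, 14 were tested, 9 fell, 6 of them under the filter level in both H3.3K27M libraries, and 2 rose. Of these 2, Tnfsf9 was under that level in both WT-H3.3 libraries, at 0.678 and 0.612 CPM. Clcf1, which signals through gp130 like Lif and Il6, fell from 124 and 72.4 CPM to 0.282 CPM and no count, and Kitl (stem cell factor) from 293 and 262 CPM to 61.4 and 66.5 CPM. Il17d rose from 5.25 and 3.67 CPM to 26.6 and 20.1 CPM.

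Of the receptors of the chemokines and of Csf1, Ccr2, Cxcr2 and Csf1r were low in OPC cultures of either line. Ccr2, the receptor of Ccl2 and Ccl7, had no count with WT-H3.3 and 0.141 CPM at most with H3.3K27M, and Cxcr2 was at 0.102 CPM or less. Csf1r, the Csf1 receptor, was at 0.932 and 0.510 CPM with WT-H3.3 and at 0.141 CPM and no count with H3.3K27M. Ackr3, the second receptor of Cxcl12, fell from 6.18 and 5.81 CPM to 2.54 and 1.56 CPM, the only one called of 3 further chemokine receptors tested. Lifr was at 24.1 and 31.3 CPM with WT-H3.3 and 50.3 and 56.0 CPM with H3.3K27M, while Il6ra fell from 24.1 and 23.2 CPM to 0.141 and 0.391 CPM. Over 20 cytokine receptors tested, 10 fell, 4 of them under the filter level in both H3.3K27M libraries, and 1 rose, Cntfr, the receptor of ciliary neurotrophic factor.

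Of the signalling lists, 12 of 20 NF-kB components and targets tested fell and none rose (median log2 fold change -1.39 beside 0.00063 over all genes), 6 of the 12 under the filter level in both H3.3K27M libraries. Relb, an NF-kB subunit, fell by 3.34 ± 0.23 (SE) on the log2 scale, and the adhesion molecule Vcam1 by 3.86 ± 0.27. Of 16 genes of the JAK-STAT3 route, 7 fell, 1 of them under that level, and none rose (median -0.67), among them Cebpd, from 83.8 to 89.0 CPM down to 4.37 to 6.78 CPM, and the feedback inhibitor Socs2. Of 19 interferon response genes tested, 15 fell, 8 of them under that level, and none rose (median -2.42), with Usp18 falling from 14.9 and 15.8 CPM to under 0.3 CPM and Irf9, a subunit of the interferon-induced factor ISGF3, from 49.7 and 44.0 CPM to 8.88 and 7.30 CPM. In the complement list, 4 of 7 tested genes fell, 3 of them under that level, including the membrane regulators Cd59a and Cd55, and the 3 C1q genes had no count in any OPC library.

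Markers of other cell types moved with these genes in the same libraries, and their part in the result was not tested. Of 18 fibroblast markers tested, 16 fell, 7 of them under that level, and 1 (Thy1) rose, and their summed level was 1530 and 1590 CPM with WT-H3.3 against 90.5 and 103 CPM with H3.3K27M. Fn1 (fibronectin) was at 692 and 557 CPM with WT-H3.3 and at 16.5 to 16.7 CPM with H3.3K27M, and of the 18 markers 1, Tagln, was at 0 with H3.3K27M. All 7 tested markers of extraembryonic endoderm fell, 4 of them under that level, from 152 to 200 CPM summed to 23.5 to 27.8 CPM. So did 4 of 6 endothelial markers, 2 of them under that level, from 46.1 to 64.8 CPM summed to 11.7 to 19.7 CPM. The list of 14 macrophage and microglia markers summed to 5.08 to 7.04 CPM with WT-H3.3 and 1.82 to 2.25 CPM with H3.3K27M. Of these, Ptprc, Itgam, Tyrobp and Adgre1 had no count in any OPC library, and Cd68, at 1.78 and 2.24 CPM with WT-H3.3 and 0.986 and 1.04 CPM with H3.3K27M, was the only one tested. Of 10 markers of the oligodendrocyte lineage tested, 6 rose and 2 fell, these 2 under that level. The list summed to 749 to 753 CPM with WT-H3.3 and 2140 to 2470 CPM with H3.3K27M. Cspg4, which encodes the NG2 proteoglycan, rose by 3.2 ± 0.20 (SE) on the log2 scale, while Pdgfra, the OPC growth factor receptor, fell from 15.1 to 23.2 CPM down to 0.564 to 0.782 CPM. Of 10 astrocyte markers 4 fell and 1 rose. Of the 4, 1 was under that level, Gfap (from 23.8 and 32.5 CPM to 0.282 CPM at most). Of 10 neuronal markers 6 fell, 2 of them under that level, and 4 rose. Their summed level was 849 CPM at most with WT-H3.3 and 1850 to 2030 CPM with H3.3K27M. Map2 made up most of it, at 553 and 574 CPM with WT-H3.3 and 1560 and 1660 CPM with H3.3K27M. The median log2 fold change of the neuronal markers was -1.18.

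**Figure D2:**
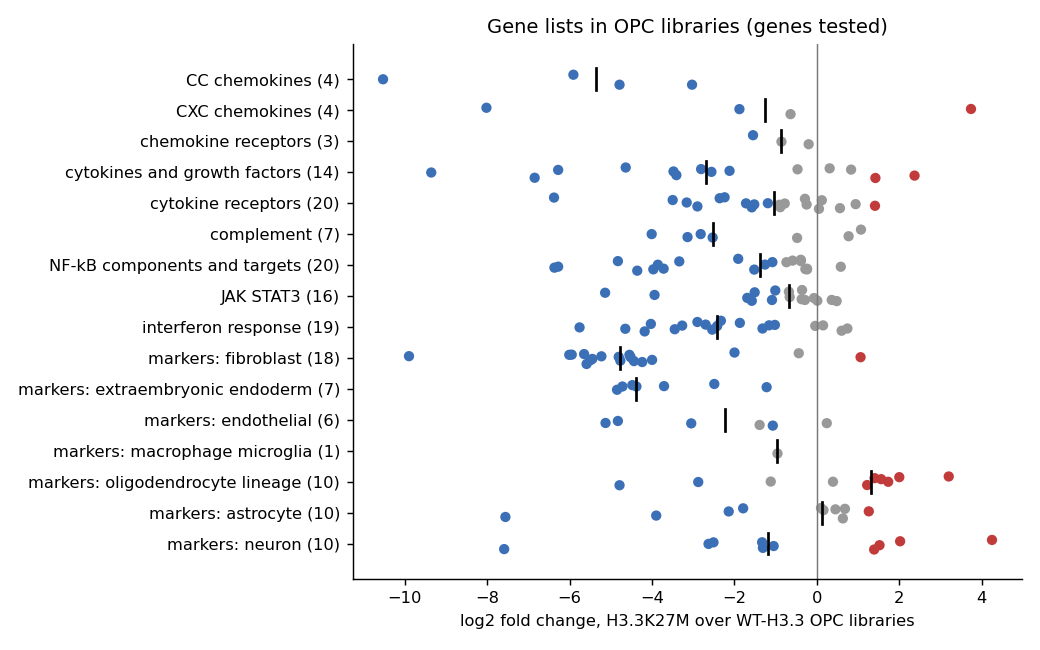
Log2 fold changes (x axis, H3.3K27M over WT-H3.3 OPC libraries) of the tested genes of each list (y axis, number tested in brackets, the 10 described genes left out); blue genes were called lower, red genes higher and grey genes not called, and a black bar marks the list's median. Fibroblast and extraembryonic endoderm markers lie mostly to the left of 0, as do the chemokine, cytokine, NF-kB and interferon lists, while 6 oligodendrocyte lineage markers lie to the right.

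RA-treated cells expressed 4 of the 10 genes well enough for a test (Csf1, Lif, Cxcl12 and Cxcr4). Between lines none of them was called. With H3.3K27M against WT-H3.3, each line pooled over both Dox times, their log2 fold changes were -0.23 ± 0.83 (SE) for Cxcl12, 0.20 ± 0.68 for Cxcr4, -0.08 ± 0.73 for Lif and -0.05 ± 0.67 for Csf1, with adjusted p = 1.0 for each in edgeR's quasi-likelihood test. No gene of 12233 (0.0%) was called in this comparison; 14 had an unadjusted p under 0.05, and DESeq2 also called 0. With H3.3K27L against WT-H3.3, Csf1 was at 34.3 (24 h) and 12.7 CPM (72 h) against 55.7 and 33.2 CPM, a log2 fold change of -0.92 ± 0.67 (adjusted p = 1.0). H3.3K27L had the lowest Csf1 level at either Dox time. In the same libraries the 18 fibroblast markers summed to 270 to 1160 CPM with H3.3K27L and 1240 to 1950 CPM with WT-H3.3. The 10 markers of extraembryonic endoderm summed to 2630 to 6860 and 969 to 3440 CPM. Their part in the Csf1 value was not tested. With Dox time as a block the value was -0.94 ± 0.21 (adjusted p = 0.0225), which passes the p threshold but not the 2-fold threshold. No gene was called in the pooled fit of this comparison (0.0%; 185 at an unadjusted p under 0.05, 5 called by DESeq2), while the block gave 445. The pooled fit counts the change between the Dox times as spread, so its 95% interval for Lif with H3.3K27M ran from -1.52 to 1.36. With Dox time as a block the values with H3.3K27M were -0.08 ± 0.26 for Lif (interval -0.58 to 0.43), -0.06 ± 0.20 for Csf1 (-0.46 to 0.33), -0.01 ± 0.39 for Cxcl12 (-0.76 to 0.75) and 0.02 ± 0.38 for Cxcr4 (-0.73 to 0.77), and none passed the threshold. In that fit the intervals of all 4 genes lie within a 2-fold change in either direction.

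Between the 2 Dox times of RA-treated cells, the cytokines Csf1 and Lif fell and the ligand Cxcl12 rose, 3 called genes of 4, where 42.1% of the 11692 genes tested were called (19.6% higher and 22.5% lower). For all 4 genes the 72 h libraries did not overlap the 24 h libraries, which was so for 31.2% of genes in the higher and 34.9% in the lower direction. Csf1 was at 55.7, 57.4 and 34.3 CPM at 24 h (wild type first, then H3.3K27M, then H3.3K27L) and at 33.2, 28.2 and 12.7 CPM at 72 h. It fell in 3 of 3 lines, by 1.04 ± 0.17 (SE) on the log2 scale (edgeR's quasi-likelihood test with a term for the line, adjusted p = 0.000208). Lif was at 20.6, 19.8 and 21.9 CPM at 24 h and at 8.43, 7.70 and 11.6 CPM at 72 h. The 3 lines were close to one another at either time, and Lif fell by 1.16 ± 0.22 (adjusted p = 0.000533). Cxcl12 rose from 4.71, 7.15 and 9.68 CPM to 20.5, 14.3 and 12.7 CPM, a log2 fold change of 1.11 ± 0.31 (adjusted p = 0.00658). The lines stood in the opposite order at the 2 times, with WT-H3.3 lowest at 24 h and highest at 72 h. Its receptor Cxcr4 went from 5.10, 4.10 and 4.97 CPM to 6.32, 9.17 and 9.40 CPM, which passed the p threshold (adjusted p = 0.0241) with a fold change of 1.82, under 2.

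These calls sit near the 2-fold threshold. Without the H3.3K27L library at 72 h or at 24 h the Csf1 value was -0.85 or -0.90, and without the WT-H3.3 library at 72 h or at 24 h the Cxcl12 value was 0.77 or 0.70, each past the p threshold but under 2-fold. Cxcr4 without the same WT-H3.3 libraries reached 1.1 or 1.03 and was called. Dox time, time in RA and collection cannot be told apart, and over the 11244 genes with an annotated length the log2 fold changes correlated with exon length (Spearman rho = -0.34, across genes, a description). The 72 h libraries were also the shallower ones, at 2239137 to 3268238 counts against 5050115 to 22269533.

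**Figure D3:**
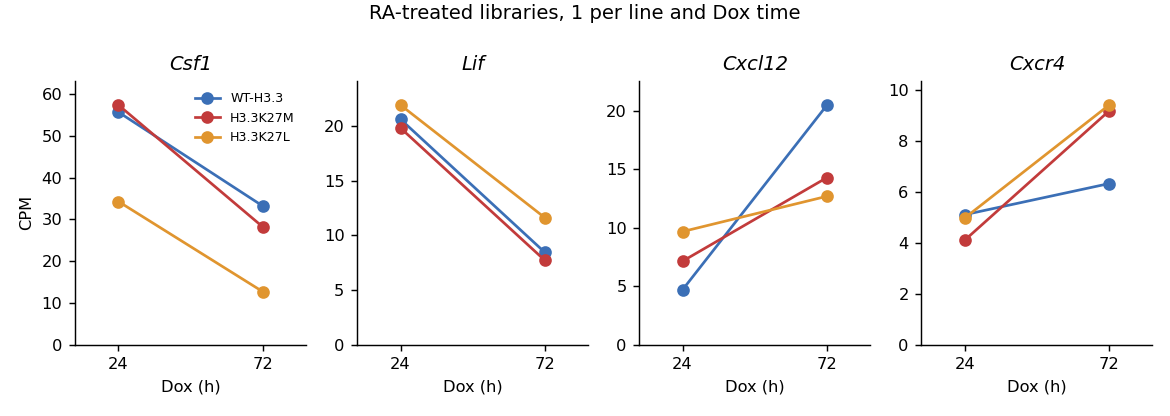
CPM (y axis, from 0) of Csf1, Lif, Cxcl12 and Cxcr4 in RA-treated libraries after 24 and 72 h of Dox (x axis), 1 library per line and time, lines joined by colour. Csf1 and Lif fell and Cxcl12 and Cxcr4 were higher at 72 h in each of the 3 lines.

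The remaining 6 genes were at or near the limit of detection in RA-treated cells. Ccl2 had 2 counts and Ccl7 1 count over all 6 libraries. Cxcl5 reached 6.85 CPM (13 counts) with WT-H3.3 at 72 h against 2 counts at 24 h, and Cxcl1 reached 2.89 CPM (8 counts) with H3.3K27L at 72 h against none at 24 h. The counts of the pathway lists at 72 h against 24 h stand beside 42.1% of all genes called and show nothing particular to these lists. Here 5 of 18 NF-kB components and targets rose and 3 fell: the inhibitor Nfkbia rose from 19.6 to 23.3 CPM up to 110 to 146 CPM and the subunit Rela rose by 1.14 ± 0.13 (SE), while Icam1 and Nfkb1 fell. Of 15 JAK-STAT3 genes, 4 rose, Socs1 and Cebpb first among them, and none fell. Of 20 cytokine receptors 6 fell, including Il6st, the gp130 chain used by Lif, from 126 to 166 CPM down to 31.9 to 38.5 CPM, and 2 rose (Il11ra1 and Tnfrsf1a). Kitl and Tgfb1 were among 4 of 11 cytokines that fell. Of 13 fibroblast markers tested in these libraries 8 fell and 1 rose, and their part in the fall of Csf1 and Lif was not tested.

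In ESCs, only Cxcr4 and Lif were detected well enough for a test, and neither passed the test with H3.3K27M or with GSK343. Cxcr4 was at 1.1 to 2.57 CPM (median 2.07, 8 libraries) with WT-H3.3, 0.842 to 4.58 CPM (median 2.53) with H3.3K27M and 0.834 to 2.51 CPM (median 1.56) with GSK343. The ranges overlapped, and the mean differences over the 4 Dox times were 0.31 ± 0.22 (SE, log2) for H3.3K27M (edgeR's quasi-likelihood test, adjusted p = 0.600, 95% interval -0.12 to 0.74) and -0.11 ± 0.23 for GSK343 (adjusted p = 0.991, interval -0.56 to 0.34). Lif was at 1.96 to 5.34 CPM (median 2.76) with WT-H3.3, 2.94 to 4.04 CPM (median 3.52) with H3.3K27M and 0.834 to 6.51 CPM (median 2.96) with GSK343. The Lif differences were 0.18 ± 0.18 (adjusted p = 0.713) and 0.05 ± 0.19 (adjusted p = 1.0). In the same fit 2 of 14012 genes (0.0143%) were called with H3.3K27M, 23 with a replicate block, and 1619 had an unadjusted p under 0.05. None was called with GSK343 (0.0%, DESeq2 0), where 678 had an unadjusted p under 0.05.

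With H3.3K27L, Cxcr4 in ESCs ranged from 0 to 6.75 CPM (median 4.34, 8 libraries). The 0 is the library of 68378 counts; the other 7 were at 1.37 to 6.75 CPM (median 5.40). At 8 h (5.40 and 5.68 CPM) and 24 h (6.75 and 5.52 CPM) all 4 H3.3K27L libraries exceeded every WT-H3.3 library, at 4 h the 2 replicates were at 1.37 and 2.87 CPM, within or near the WT-H3.3 range, and at 72 h the deep library was at 3.28 CPM. The log2 fold change was 1.09 ± 0.22, 1.09 also without the libraries under 2000000 counts, and 0.96 ± 0.25 without the 4 replicate 2 libraries; 0.628% of 14012 genes were called higher. Without the 72 h replicate 1 library, when the shallow library alone stands for 72 h, it was -0.85 ± 4.42. Lif in H3.3K27L ESCs was at 3.22 to 4.92 CPM apart from the shallow library, a log2 fold change of 0.32 ± 0.19, and -1.75 ± 2.36 without the same 72 h library. Fold changes over all genes correlated with exon length in this comparison (Spearman rho = 0.31, across genes). They did so in the other ESC comparisons as well, with rho = 0.25 for H3.3K27M, -0.32 for GSK343 and 0.42 for 72 h against 4 h. Whether the library kit took part in the Cxcr4 or Lif values was not tested.

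Between 4 and 72 h of Dox, averaged over the 4 ESC groups, Cxcr4 changed by -0.46 ± 0.24 (adjusted p = 0.159 in edgeR's quasi-likelihood test) and Lif by 0.43 ± 0.19 (adjusted p = 0.0949). Neither was called, where 4.04% of genes were. Whether the 72 h minus 4 h change depended on the H3.3K27M mutation was tested as an interaction: the change with H3.3K27M minus that with WT-H3.3 was -0.60 ± 0.65 for Cxcr4 and 0.24 ± 0.50 for Lif (adjusted p = 1.0 for both, edgeR), neither past the threshold.

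**Figure D4:**
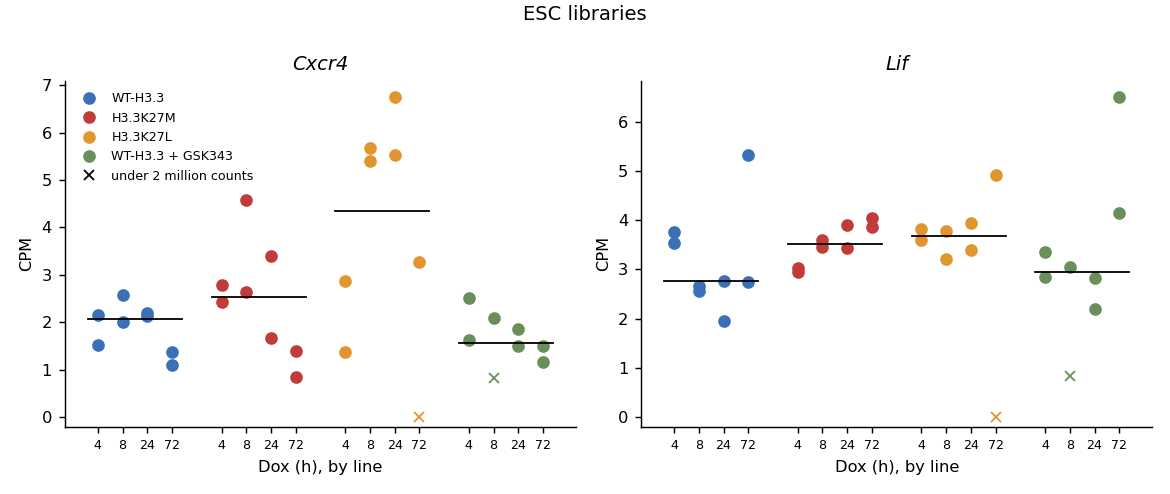
CPM (y axis) of Cxcr4 and Lif in the 32 ESC libraries by line and Dox time (x axis); each point is a library, crosses are libraries under 2000000 counts and black lines are medians over the 8 libraries of a group. Orange H3.3K27L points stand above the rest for Cxcr4 at 8 and 24 h, while the Lif levels of the 4 groups overlap.

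The other 8 genes gave few or no counts in ESCs. Ccl2 and Ccl7 had no count in any of the 32 libraries, which allows at most 0.0332 to 0.0608 CPM per group (3 counts over its 8 libraries). Csf1, abundant in OPC cultures, had 36 counts over the 8 WT-H3.3 libraries, with at least 1 in every library, 26 with GSK343, 11 with H3.3K27M and 3 with H3.3K27L. The pooled ratio of WT-H3.3 to H3.3K27L was 8.69-fold (95% exact interval 2.75 to 44.1) and to H3.3K27M 2.28-fold (1.14 to 4.97), counting error only; Csf1 failed the filter and was not tested. Cxcl12 had 18 counts with WT-H3.3, 4 with H3.3K27M, 2 with GSK343 and 35 with H3.3K27L. Of those 35, 31 came from the 4 libraries numbered replicate 2, at 1.76, 1.02 and 0.684 CPM for 24, 8 and 4 h, the libraries with the low chromosome 8 share. Cxcl1, Cxcl5, Il6 and C3 each had 7 counts or fewer in every group of 8 libraries.

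Receptors of Cxcl12 and Lif were detected in ESCs, while Ccr2 and Cxcr2 had 1 count each over the 8 WT-H3.3 libraries and none in the other groups. Ackr3 had a median of 10.1 CPM with WT-H3.3, 9.38 CPM with H3.3K27M and 11.5 CPM with H3.3K27L, Lifr of 81.7, 83.2 and 86.8 CPM and Il6st of 77.7, 88.7 and 116 CPM. Of the chemokine, cytokine, receptor, complement, JAK-STAT3 and interferon lists, no gene was called with H3.3K27M, and of 19 NF-kB components and targets 1 was, Ptgs2 (cyclooxygenase-2), which fell by 1.62 on the log2 scale (edgeR, adjusted p = 0.0212), from a median of 2.29 CPM to 0.928 CPM. This call was lost under 12 of 40 alternatives with an adjusted p (log2 fold change -1.80 to -1.46 over the 40), among them the fit of only the libraries compared (adjusted p = 0.204) and the fit without the libraries under 2000000 counts (0.0694). Ptgs2 also fell with H3.3K27L, by 1.23 on the log2 scale (edgeR, adjusted p = 0.00332). With GSK343 no gene of these lists was called.

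Across stages, Ccl2, Ccl7 and Cxcl1 were detected above 3 CPM in only 2 of the 42 libraries, the WT-H3.3 OPC cultures. Csf1 was at 240 to 316 CPM in these, 12.7 to 57.4 CPM in RA-treated cells, 16.2 to 22.1 CPM in H3.3K27M OPC cultures and at most 1.04 CPM in ESCs. The H3.3K27M OPC range of Csf1 thus lay inside the RA range. Cxcl12 was at 20.4 to 29.0 CPM in WT-H3.3 OPC cultures, 4.71 to 20.5 CPM in RA-treated cells, 1.55 to 2.74 CPM in H3.3K27M OPC cultures and at most 1.76 CPM in ESCs, neighbours in this order touching or nearly so. Lif had another order, highest in RA-treated cells (7.70 to 21.9 CPM), which overlapped WT-H3.3 OPC cultures (7.96 to 9.28 CPM), then ESCs (6.51 CPM at most) and lowest in H3.3K27M OPC cultures (0.423 to 1.17 CPM). Stages were normalized apart and may differ in library kit, so these levels are set side by side without a test.

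**Figure D5:**
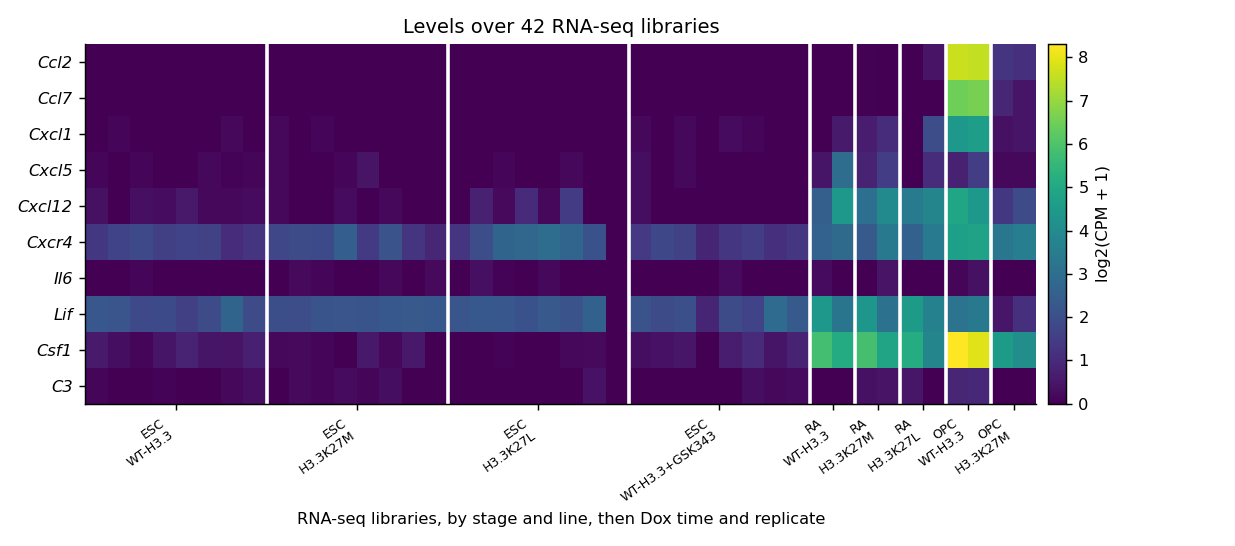
Log2(CPM + 1) (colour) of the 10 genes (y axis) in the 42 libraries (x axis, by stage and line, then by Dox time and replicate, white lines between groups). Ccl2, Ccl7 and Cxcl1 stand out in the 2 WT-H3.3 OPC libraries, Csf1 and Cxcl12 in RA and OPC libraries, and Cxcr4 and Lif are seen in every stage.

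The genes whose levels followed Ccl2 most closely over the 42 libraries, by Pearson's r of log2(CPM + 1) among 13577 genes averaging 1 CPM or more, were Ccl7 (r = 0.997), Gkn1, a gastrokine (r = 0.995), and the phosphodiesterase gene Pde1a (r = 0.992). Gkn1 was at 66.6 and 69.5 CPM in WT-H3.3 OPC cultures, at 1.69 and 1.97 CPM with H3.3K27M, and had no count in ESC or RA libraries. Among the 10 genes, r with Ccl2 was 0.943 for Cxcl1, 0.672 for Csf1, 0.669 for Cxcr4, 0.588 for Cxcl12 and 0.191 for Lif. The 2 WT-H3.3 OPC libraries set these values, since Ccl2 was near 0 in the other 40. For Cxcr4 over the 31 ESC libraries with at least 1000000 counts, the closest were Pnrc1 (r = 0.836), Ptcd1 (0.810) and the cathepsin gene Ctsb (0.803), and r with Lif was 0.123. Depth differed among these 31 libraries, from 1247934 to 21161392 counts, and the labels do not give batches. The value of r describes the libraries only.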

How the data were processed

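Raw gene counts were deposited by the authors in 3 tables (ESC, RA and OPC; 42 libraries), made from single-end reads of QuantSeq 3′ or KAPA mRNA libraries aligned to mm9 with STAR (2.7.1, per the submitters' processing notes); which library used which kit is not given in the sources used here. The other 113 samples were not analysed here. OPC columns were matched to samples by line and Dox time, since the replicate numbers of column names and titles differ. Gene identifiers without version were mapped to symbols and to mm9 positions for 32589 of 55471 genes. Genes of chromosome 8 (2532 genes, 5.849% of counts), which the study excluded for a possible duplication, were left out. Counts were tested with edgeR 4.0.16 (quasi-likelihood test, TMM, filterByExpr), with Benjamini-Hochberg adjustment over all genes tested, and a call needed an adjusted p under 0.05 together with a ratio above 2 or below 0.5. SEs were derived from the F statistic, and intervals are normal at 95% or, for pooled counts, exact binomial at 95%; the latter and the limit of 3 counts cover counting error only. The ESC fit had a mean for each group and Dox time, the RA fit a mean for each line (or terms for line and time), and the OPC fit a mean for each line. DESeq2 1.42.0, RLE size factors, no filter, chromosome 8 kept, blocks and each library left out were the alternatives. The code was tested on simulated data. No pair of libraries agreed within sampling noise (lowest mean chi-square per gene 1.95). The study states that experiments were repeated weeks apart, so ESC p-values measure the spread between such repeats, while those of RA and OPC libraries, with 1 library per line and Dox time, measure the spread over Dox times or lines; whether repeats came from the same clone is not given in the sources used here. H3.3K27M and WT-H3.3 ESCs of the same replicate number deviated together (correlations of replicate differences 0.613 to 0.718 at the 4 Dox times). The reported ESC fit did not pair these numbers, so its p-values are unpaired. The replicate block was the alternative that took them as pairs. Reads of the H3.3 transgene cannot be told from H3f3a and H3f3b reads in gene counts, so the labels were not checked by them. The 10 genes, the gene lists and the marker lists were chosen with earlier results of these data known. Further genes are named by a rule: from each list, up to 2 called genes per direction with the lowest adjusted p whose groups did not overlap, the 3 genes most like Ccl2 and Cxcr4, and markers; the receptors of the 10 genes, their chromosomal neighbours, Ptgs2, Il6st and called genes listed to complete a count were added after their values were seen.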

Additional observations from a re-analysis of the deposited data

Results flagged for a closer look

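Lif in H3.3K27L ESCs at 72 h, replicate 2, was flagged because it lay far from the other 7 libraries of that line, at 0 CPM where the others were at 3.22 to 4.92 CPM. This library held 68378 counts, so 3 counts correspond to more than the Lif level of any ESC library, and a Lif level like that of the others could not have been detected. The same check was made on 8 groups (Cxcr4 and Lif in 4 ESC groups), and chance flags about 1 group in 20.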

How the results depend on the processing

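No member was called with H3.3K27M or GSK343 or between 72 h and 4 h in ESCs, or between lines in RA-treated cells, in the fits reported or under any alternative run. For the member count at 72 h against 24 h in RA-treated cells, 3 genes were called, 3 under every alternative setting (with no filter Cxcl12, at 0.99, lost its call and Cxcl5, then tested at 2.48, gained one) and 2 to 3 when a library was left out. In ESCs, H3.3K27M against WT-H3.3 gave 2 called genes, 4 with DESeq2, 152 with no filter, 23 with the replicate block, 0 with only the libraries compared and 0 without the libraries under 2000000 counts and 1 without the H3.3K27L libraries of low chromosome 8 share (both chosen after seeing the data), and 0 to 131 when a library was left out. GSK343 gave 0, and 26 with no filter. H3.3K27L gave 481, 750 with no filter, 730 without its libraries of low chromosome 8 share and 117 to 657 when a library was left out, the lowest without the 72 h replicate 1 library; 72 h against 4 h gave 566, and 370 to 854. Replicate differences of H3.3K27L and WT-H3.3 cells correlated negatively at 3 of 4 Dox times. Those of GSK343-treated and WT-H3.3 cells did so at 8 h (-0.299) and 24 h (-0.462). With the numbers of both groups crossed at these times (chosen after seeing the data) 9 genes were called with H3.3K27M. In RA-treated cells, H3.3K27M gave 0 and 2 with Dox time as a block; H3.3K27L gave 0, 5 with DESeq2, 7 with no filter and 445 with Dox time as a block. OPC calls numbered 3482, 3033 with DESeq2, 3969 with no filter and 3507 with the replicate block.

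The sign turned for Cxcl12 with H3.3K27L in RA-treated cells under the Dox time block (0.17) and for Lif with GSK343 without a filter (-0.0). Leaving out a library turned further values near 0 (Cxcl12 -0.94 to 1.17, Cxcr4 -0.51 to 0.68, Lif -0.93 to 0.73 and Csf1 -0.66 to 0.38 with H3.3K27M in RA-treated cells; Cxcl12 -0.88 to 1.23, Cxcr4 -0.20 to 0.72 and Lif -0.35 to 1.0 with H3.3K27L; Lif -0.33 to 0.18 with GSK343 and -1.66 to 0.51 at 72 h against 4 h) and, with H3.3K27L in ESCs, Cxcr4 (-0.85 to 1.19) and Lif (-1.75 to 0.46). The cause was not tested, save that the last 2 leave 68378 counts for 72 h. The RA designs have 1 library per line and time, which limits any line comparison there.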
